A study of Mus musculus with 56 samples.

Results

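ChIP-seq peaks were examined at 8 genes that encode scavenger and efferocytosis receptors of macrophages, namely Trem1, Trem2, Mertk, Axl, Cd36, Msr1, Marco, and Cd163. The genes were chosen by name, and every peak that the files assign to one of these genes, which is the gene with the nearest transcription start site, was taken. This gave 1685 of 1610519 peaks over 56 lists, for 8 of the 20352 genes named in them. All cells were bone marrow-derived macrophages (BMDMs) of wild-type mice aged 8 to 12 weeks, on a C57BL/6 background by the study's methods. No group carried a mutation. The cells were differentiated for 6 days, by the labels in the presence of MCSF and by the study's methods with the supernatant of L929 cells. In the 1 hr experiment, untreated cells and cells given IL-4 at 20 ng/ml for 1 hr were compared with 8 antibodies (H3K27Ac, PU.1, p300, HDAC1, HDAC2, HDAC3, RNAPII-pS5, and RNAPII-pS2), to see the immediate effect of the cytokine. In the pretreatment (PT) experiment, RNAPII-pS5, RNAPII-pS2, and p65 were measured in untreated cells (ctrl/ctrl), in cells given IL-4 at 20 ng/ml for 24 hr (IL-4 PT/ctrl), in cells given LPS at 100 ng/ml by the labels, a dose that the study's methods give in nM, for 1 hr (ctrl/LPS), and in cells given IL-4 and then LPS (IL-4 PT/LPS), to see whether earlier IL-4 changes the response to LPS. Each antibody and condition had 2 libraries.

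Scavenger receptors take up modified lipoproteins, polyanions, and microbial surfaces, and efferocytosis receptors recognize phosphatidylserine on dying cells so that macrophages engulf them. Mertk and Axl are receptor tyrosine kinases that bind phosphatidylserine through the bridging proteins Gas6 and protein S, Trem2 and Trem1 signal through the adaptor Tyrobp, Cd36 takes up oxidized lipoproteins and fatty acids, Msr1 and Marco are class A scavenger receptors, and Cd163 takes up haptoglobin-hemoglobin complexes. In macrophages, PU.1, C/EBP, and AP-1 factors occupy enhancers, p300 acetylates histones there, HDACs remove acetyl groups, IL-4 activates STAT6, and LPS brings p65, a subunit of NF-kB, into the nucleus. RNA polymerase II phosphorylated on serine 5 (RNAPII-pS5) marks initiation, and the form phosphorylated on serine 2 (RNAPII-pS2) marks elongation.

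The value of a peak is the score of the peak caller, given as −log10 of its p- or q-value, except for H3K27Ac, where it is a signal of normalized tags per region. A higher score means stronger evidence for a peak, and scores rise with the number of reads, which the files do not give. The number of peaks per library, between 8440 and 71027, stands in for depth here. Distances are from the start site of the named gene, with a minus sign upstream and a plus sign downstream. Cd36 has several start sites, and its distances are from the nearest of them. Its sites with a minus sign can thus lie inside the gene, as those at −4.9 and −7.7 kb do. In bulk chromatin, weaker binding in every cell and binding in fewer cells cannot be told apart. The p-values measure the spread between 2 libraries per group, and with 2 against 2 an exact permutation test of a single value cannot go below p = 0.333, so calls rest on limma fits across all genes or sites, at an adjusted p of at most 0.05. Where a group had no peak, the fitted change depends on the value given to missing peaks, so a fitted size at such a site is no bound. At the receptor genes such a size is printed only where it shows how a value moves with the processing or where the LPS effect differed with pretreatment. For the wider list of other uptake genes, missing peaks were not set apart in this way. A site with peaks in 1 group alone met the filter of a peak in at least 2 libraries through that group, so its call is a description and no p-value is given for it.

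Libraries that stood apart, or that went against their labels, touch some results. Untreated replicate 1 of p300 had 44787 peaks, against 66710 to 69360 in the other 3 p300 libraries. All 4 RNAPII-pS2 lists from cells with or without IL-4 for 1 hr name their peaks after the treatment opposite to the label. The labels were followed, and signs would turn if the peak names were right. The HDAC3 samples are labelled with the same antibody catalogue number as the H3K27Ac samples. RNAPII peaks were found in every library at 7 of 8 macrophage marker genes, and the eighth, Spi1, had none under that symbol, as 52 of the lists use its older name Sfpi1. Of 22 markers of T cells, B cells, neutrophils, erythroid cells, fibroblasts, and dendritic cells, between 3 and 7 had an RNAPII peak in every library of a given data set. Among them were 2 of 3 dendritic cell markers in 3 of the 4 data sets and 1 of 4 B cell markers in all 4. For RNAPII-pS5 in the 1 hr experiment they also included 2 of 3 erythroid, 1 of 4 T cell, and 1 of 5 neutrophil markers. Between 8 and 16 had none in a data set, and Cd3e, Cd3g, Col1a1, Col3a1, Pax5, Ly6g, and Hba-a1 had none in any.

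Some of the elements described here, chosen after their values were seen, are shown as sequences of 200 bases around the centre of the site, in GRCm38 (mm10), on the plus strand, 5′ to 3′. Capitals mark motif matches on either strand, which are GAGGAAG for PU.1, TGANTCA for AP-1, TTGCNNAA for C/EBP, GGNNTTTCC for NF-kB, and TTC, 4 bases, GAA for STAT6. The first set are p300 sites: 3 that were higher after 1 hr of IL-4, 1 where H3K27Ac was lower, and the Trem2 start site, which had the highest H3K27Ac signal of all regions at these genes.
Msr1 p300 +17.3 kb, intron, chr8:39625264-39625463, with C/EBP, STAT6, and AP-1 matches: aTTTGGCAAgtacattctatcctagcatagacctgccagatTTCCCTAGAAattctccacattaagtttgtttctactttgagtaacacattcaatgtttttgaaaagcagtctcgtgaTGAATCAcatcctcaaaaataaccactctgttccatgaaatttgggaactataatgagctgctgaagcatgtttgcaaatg
Cd163 p300 −8.3 kb, intergenic, chr6:124296243-124296442, with a STAT6 match: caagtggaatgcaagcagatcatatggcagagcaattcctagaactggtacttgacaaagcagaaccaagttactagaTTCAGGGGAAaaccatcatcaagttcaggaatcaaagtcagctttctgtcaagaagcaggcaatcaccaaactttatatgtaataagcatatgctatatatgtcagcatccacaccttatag
Cd36 p300 −7.7 kb, intron, chr5:17857409-17857608, with PU.1, STAT6, and C/EBP matches: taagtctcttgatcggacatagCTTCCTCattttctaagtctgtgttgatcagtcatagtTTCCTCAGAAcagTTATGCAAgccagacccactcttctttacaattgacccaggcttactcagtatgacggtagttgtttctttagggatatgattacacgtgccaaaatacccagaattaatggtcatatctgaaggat
Msr1 p300 −7.5 kb, intergenic in GENCODE and in an intron of another transcript in the deposited annotation, chr8:39650083-39650282, with a C/EBP match: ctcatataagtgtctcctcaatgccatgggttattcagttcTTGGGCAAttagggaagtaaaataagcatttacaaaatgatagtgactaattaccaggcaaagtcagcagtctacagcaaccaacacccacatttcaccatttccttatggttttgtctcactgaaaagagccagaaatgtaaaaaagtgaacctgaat
Trem2 p300 start site, chr17:48346349-48346548, with PU.1, AP-1, C/EBP, and STAT6 matches: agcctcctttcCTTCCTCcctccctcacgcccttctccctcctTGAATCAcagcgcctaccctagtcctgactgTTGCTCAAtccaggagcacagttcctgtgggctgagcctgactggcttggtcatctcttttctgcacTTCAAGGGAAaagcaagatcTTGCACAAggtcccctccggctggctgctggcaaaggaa

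The second set are p65 sites that had no peak without LPS. The site at Trem1 had a peak in all 4 LPS libraries, and the site far upstream of Msr1 had a peak in the IL-4 PT/LPS libraries and in no other library.
Trem1 p65 +2.0 kb, intron, chr17:48234659-48234858, with PU.1 and AP-1 matches: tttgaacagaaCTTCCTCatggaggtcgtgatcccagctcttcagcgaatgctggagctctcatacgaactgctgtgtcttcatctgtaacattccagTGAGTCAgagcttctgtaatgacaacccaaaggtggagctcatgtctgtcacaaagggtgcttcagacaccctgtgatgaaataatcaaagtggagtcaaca
Msr1 p65 −132.8 kb, annotated in the same way as Msr1 −7.5 kb, chr8:39775346-39775545, with AP-1 and C/EBP matches: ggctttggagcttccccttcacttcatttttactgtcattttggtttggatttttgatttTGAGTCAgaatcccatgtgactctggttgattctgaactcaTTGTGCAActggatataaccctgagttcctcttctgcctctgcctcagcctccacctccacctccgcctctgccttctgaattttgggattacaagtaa

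Binding at the 8 genes was mostly intronic. Of the 1685 peaks, 1144 were annotated to introns, 361 were intergenic, 121 lay at promoters, and 59 in exons or UTRs. Msr1 (416 peaks), Cd36 (397), and Mertk (272) held the most peaks and had a peak in 56, 54, and 56 of the 56 lists. Axl had 104 peaks and Cd163 had 225, each with a peak in all 56 lists. The pattern differed at Marco, Cd163, and Trem1, where 119 of 132, 165 of 225, and 29 of 42 peaks were intergenic. Trem1 had a peak in 32 lists, Marco in 41, and Trem2 (97 peaks) in 53. The name of a peak is thus only the nearest gene, and 221 of the 368 sites of the non-polymerase antibodies lay inside the gene they are named for by GENCODE. In GRCm38 the genes lie at chr17:48232768-48246924 (Trem1), chr17:48346401-48354147 (Trem2), chr2:128698956-128802894 (Mertk), chr7:25757273-25788705 (Axl), chr5:17781690-17888801 (Cd36, with several start sites), chr8:39581685-39642673 (Msr1), chr1:120474538-120505024 (Marco), and chr6:124304656-124330527 (Cd163).

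Regions with a peak of all 6 of PU.1, p300, HDAC1, HDAC2, HDAC3, and H3K27Ac in the 1 hr experiment were found at 6 of the 8 genes. An antibody was counted where any 1 of its libraries, with or without IL-4, listed a peak. There were 123 bound regions at these genes, of which 11 (8.94%) had all 6, against 8.36% of 130766 regions genome-wide, and 64 (52%) had 1 of them, against 54.6%. Mertk and Msr1 held 3 such regions each, Cd163 held 2, and Axl, Cd36, and Trem2 held 1 each. Marco and Trem1 held none. In 1 of the Cd163 regions (−25.6 kb) HDAC1, and in 1 of the Msr1 regions (+40.6 kb) HDAC3, had no site with a peak in at least 2 libraries. The share with all 6 was close to that of all regions.

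At Axl, Cd163, and Mertk several antibodies had their highest mean score at the same element. For Axl it was an intronic site at +11.8 kb, with mean scores over 4 libraries of 260 for p300, 106 for PU.1, 62.6 for HDAC3, 46.2 for HDAC2, and 39.5 for HDAC1. For Cd163 it was an intergenic site at −31.3 kb, with 169 for p300, 68.7 for PU.1, and 68.9 for HDAC3. For Mertk it was an intronic site at +20.5 kb, with 183 for p300, 65.3 for PU.1, and 22.9 for HDAC3. At Trem2 the p300 score was highest at the start site (135) and the PU.1 score at +1.1 kb (78.1). PU.1 was high at Msr1 at −2.1 kb (115) and at Cd36 at −3.8 kb (115). At Marco, beyond the 3′ end of the gene, the leading site at +55.3 kb had a mean of 68.3 for p300 and 11.7 for PU.1. Trem1 had its leading site at −1.8 kb, with a mean of 22.9 for PU.1 and 34.5 for p300.

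After 1 hr of IL-4, H3K27Ac was lower at 8 of the 20 tested regions of these genes, located at Mertk, Axl, Msr1, and Cd36, and higher at 1, the Trem2 start site. The Cd36 region was listed in the untreated libraries alone and met the filter through them, so its call is a description. In all, 45% of the tested regions were called, which is near the 43.4% called among all 28929 regions. The median change on the log2 scale was −0.27, against −0.02 over all regions. Trem1 had no region.

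At Mertk, 3 intronic regions had a lower signal in both IL-4 libraries. At +10.8 kb the signal was 279.3 and 264.9 in untreated cells against 202.6 and 212.1 after IL-4 (log2 change −0.34, limma adjusted p = 0.00884). At +47.5 kb it was 164.5 and 170.9 against 127.5 and 128.1 (−0.34, limma adjusted p = 0.00982). At +20.3 kb it was 149.2 and 142.1 against 100.7 and 117.3 (−0.37, limma adjusted p = 0.0357). The groups did not overlap at any of these. The last call ended without untreated replicate 1 (−0.35, limma adjusted p = 0.0696) or IL-4 replicate 1 (−0.27, limma adjusted p = 0.0558), and with the replicate block (limma adjusted p = 0.0548). At the Mertk start site the signal was 132.0 and 127.5 against 111.3 and 95.1, which did not pass (−0.28, limma adjusted p = 0.0852). Axl, the related kinase, had a lower signal at its leading intronic element, +11.9 kb, with 114.5 and 111.8 in untreated cells against 86.4 and 80.2 after IL-4 (−0.39, limma adjusted p = 0.0159).

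At Msr1, the class A scavenger receptor, 3 of 5 regions were lower, and the change at −7.6 kb was the largest among regions present in all 4 libraries at these genes. There the signal was 183.3 and 181.8 in untreated cells against 94.4 and 90.6 after IL-4 (log2 change −0.93, SE 0.05, limma adjusted p = 0.001). At +22.5 kb it was 266.4 and 265.2 against 189.7 and 175.0 (−0.49, limma adjusted p = 0.00596), and at +47.7 kb it was 101.3 and 102.2 against 74.2 and 74.6 (−0.40, limma adjusted p = 0.0096). The drop was not shared by all elements of the gene: at +40.6 kb the signal was 56.2 and 63.4 in untreated cells against 68.2 and 66.0 after IL-4, and this did not pass the test.

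At Cd36, the fatty acid transporter, the 1 region listed was found in untreated cells and not after IL-4. It lay at −4.9 kb (chr5:17854215-17855233), with a signal of 174.1 and 189.3 in untreated cells, against a median of 63.5 over untreated regions, and the nearest region of the IL-4 lists was 119870 bp away. Of the 5603 regions with a signal of at least 174.1 in both untreated libraries, 133 (2.37%) were missing from both IL-4 lists, and conversely 181 of 5582 strong IL-4 regions were missing from both untreated lists. The other antibodies kept peaks there. The p300 score was 51.9 and 179.48 in untreated cells against 133.47 and 127.91 after IL-4, and PU.1 was 99.87 and 57.99 against 123.53 and 141.1.

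Trem2, the lipid-sensing receptor, had the single higher region, at +0.6 kb, and also the highest signal of any region of these genes. It was 940.2 and 845.4 in untreated cells against 1003.6 and 1033.8 after IL-4 (log2 change 0.25, limma adjusted p = 0.0332). This call ended without IL-4 replicate 1 (0.26, limma adjusted p = 0.0514), without IL-4 replicate 2 (0.23, limma adjusted p = 0.079), and with no centring (0.19). At the 4 regions of Cd163 the values went both ways and did not pass. At −31.2 kb the signal was 62.9 and 61.9 in untreated cells against 50.7 and 50.3 after IL-4 (−0.25, limma adjusted p = 0.0567), while at −25.6 kb it was 19 and 23.4 against 24.5 and 28.8 (0.39, limma adjusted p = 0.138) and at −7.4 kb 11.4 and 11.6 against 18.2 and 13.2 (0.48, limma adjusted p = 0.122). The regions of Marco were weak, between 10.1 and 31.8 in the libraries that listed them.

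**Figure D1:**
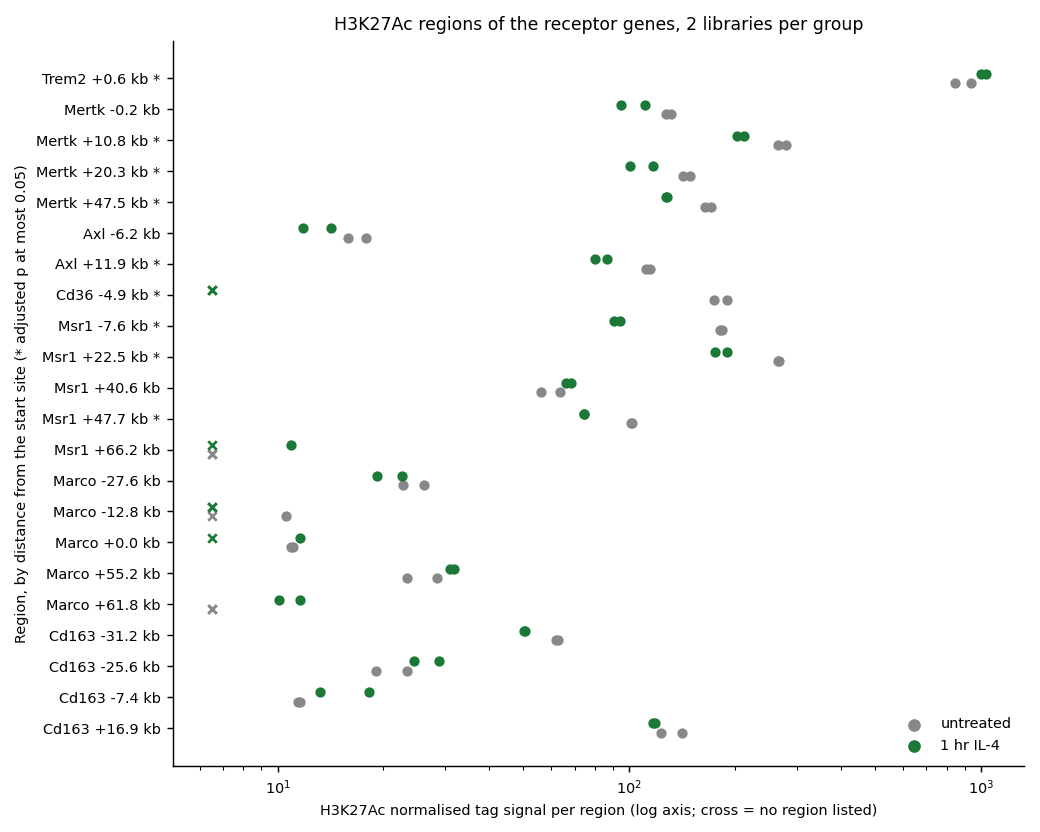
H3K27Ac signal (normalized tags per region, log axis) in each of the 2 untreated and 2 IL-4 libraries at the 22 regions of these genes. The Msr1 region at −7.6 kb falls from 183.3 and 181.8 to 94.4 and 90.6, while the Trem2 start site lies highest, between 845.4 and 1033.8.

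p300, the acetyltransferase, gained at some elements and lost at others of the same genes after 1 hr of IL-4. Of 67 tested sites, 10 were called higher and 5 lower (22.4%), close to the 21% called among all 67229 sites, and the median log2 change was 0.09 against 0.11 over all sites. The higher sites were at Msr1 (3), Cd163 (3), Cd36 (2), Axl (1), and Marco (1), and the lower sites at Cd163 (2), Msr1 (2), and Mertk (1). Of these, 4 higher sites and 1 lower site had peaks in 1 group alone. The values are centred on the sites shared by all libraries. Their median log2 score was 3.61 and 5.26 in the untreated libraries (mean 4.44) and 5.09 and 5.13 in the IL-4 libraries (mean 5.11). The lower untreated mean thus came from untreated replicate 1, and untreated replicate 2 was above both IL-4 libraries. With no centring, 0 of the sites were called by limma, and 10 had an unadjusted p of at most 0.05, against 27 in the centred fit. Without untreated replicate 1, 11 of the 15 sites were still called (9 higher, 2 lower), and 14 kept their direction. Without untreated replicate 2, 29 were called. Without IL-4 replicate 1 it was 5 and without IL-4 replicate 2 it was 3, and in both cases the 4 sites called higher with no untreated peak had a peak in 1 library and were not tested. With limma without a mean trend it was 0, with 13 at an unadjusted p of at most 0.05. With the value for missing peaks set after centring it was 8 (7 higher, 1 lower), and with sites found in a single library tested as well it was 3, namely Cd163 −21.8 and −8.3 kb and Msr1 +17.3 kb, all higher.

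Among the sites called higher, 4 at 3 genes had a p300 peak that neither untreated library had. At Cd163, the hemoglobin scavenger receptor, the intergenic sites at −21.8 and −8.3 kb lacked a peak in both untreated libraries and scored 29.45 and 28.38, and 25.86 and 31.4, after IL-4. At Axl, +3.8 kb had no peak against 19.1 and 23.87, and a site at −170.8 kb from Msr1, in an intron of another transcript, had none against 16.54 and 26.51. These 4 sites met the filter through the IL-4 libraries alone, and no p-value is given for them. Weaker peaks listed in the IL-4 libraries alone, and not called, were at Marco +54.2 kb (6.59 and 12.28), Cd36 +5.1 kb (6.85 and 4.44), and Cd36 +2.6 kb (6.62 and 5.08). At Cd36, +14.3 kb had no peak and 7.88 in the untreated libraries and 34.19 and 24.69 after IL-4 (2.49, limma adjusted p = 0.00311).

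Other sites had a peak in every library and a higher score after IL-4. The intronic Msr1 site at +17.3 kb had 13.4 and 54.76 in untreated cells against 101.09 and 99.4 after IL-4 (log2 change 1.22, limma adjusted p = 1.33e-04), and 0.96 without untreated replicate 1 (limma adjusted p = 0.00417). The Marco site at +55.3 kb had 15.59 and 64.96 against 93.54 and 98.91 (0.93, limma adjusted p = 0.00278), and Cd36 at −7.7 kb had 44.35 and 114.78 against 187.33 and 167.34 (0.64, limma adjusted p = 0.0296). In each case both IL-4 libraries scored above both untreated ones. The same held at Msr1 +47.7 kb, where H3K27Ac was lower: p300 was 28.43 and 98.22 against 132.67 and 137.64 (0.68, limma adjusted p = 0.0178). The call at Cd163 −33.4 kb, 9.39 and 49.34 against 60.18 and 73.66 (0.96, limma adjusted p = 0.00784), ended without untreated replicate 1 (0.52, limma adjusted p = 0.13) or IL-4 replicate 2 (0.83). The calls at Msr1 +17.3 kb and Marco +55.3 kb held whichever 1 library was left out. Those at Cd36 +14.3 kb (2.24 and 2.74), Cd36 −7.7 kb (0.55 and 0.74), and Msr1 +47.7 kb (0.70 and 0.68) ended without IL-4 replicate 1 and without IL-4 replicate 2.

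At 3 of the 5 lower p300 sites, the raw score of untreated replicate 1 was below both IL-4 libraries and that of untreated replicate 2 above both. At Msr1 −7.5 kb, where H3K27Ac was also lower, p300 was 44.72 and 107.63 in untreated cells against 71.84 and 54.93 after IL-4 (log2 change −0.81, limma adjusted p = 0.00839, and −0.69 with limma adjusted p = 0.0538 without untreated replicate 1). At Msr1 −2.0 kb it was 77.29 and 161.83 against 110.02 and 104.26 (−0.73, limma adjusted p = 0.0163, and −0.51 with limma adjusted p = 0.0229 without that library). The raw scores of the groups overlapped at both. At Mertk +48.7 kb the scores were 9.96 and 28.7 against 7.24 and 9.18 (−1.72, limma adjusted p = 0.016), and this held without that library (−1.73). Cd163 at +15.1 kb, 29.5 and 70.2 against 41.51 and 48.91, was called (−0.68, limma adjusted p = 0.0368) but not without it (−0.55, limma adjusted p = 0.127), and Cd163 at −19.9 kb had 9.01 and 4.93 against no peak. Without IL-4 replicate 1 and without IL-4 replicate 2, the calls at Mertk +48.7 kb (−1.56 and −1.88), Msr1 −2.0 kb (−0.78 and −0.68), and Cd163 +15.1 kb (−0.58 and −0.79) ended, and that at Msr1 −7.5 kb ended without IL-4 replicate 2 (−0.60). At the Trem2 start site p300 was 53.47 and 125.81 against 172.06 and 187.05, which did not pass (0.46, limma adjusted p = 0.14), and at Trem1 −1.9 kb it was 11.99 and 48.85 against 39.54 and 37.49.

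**Figure D2:**
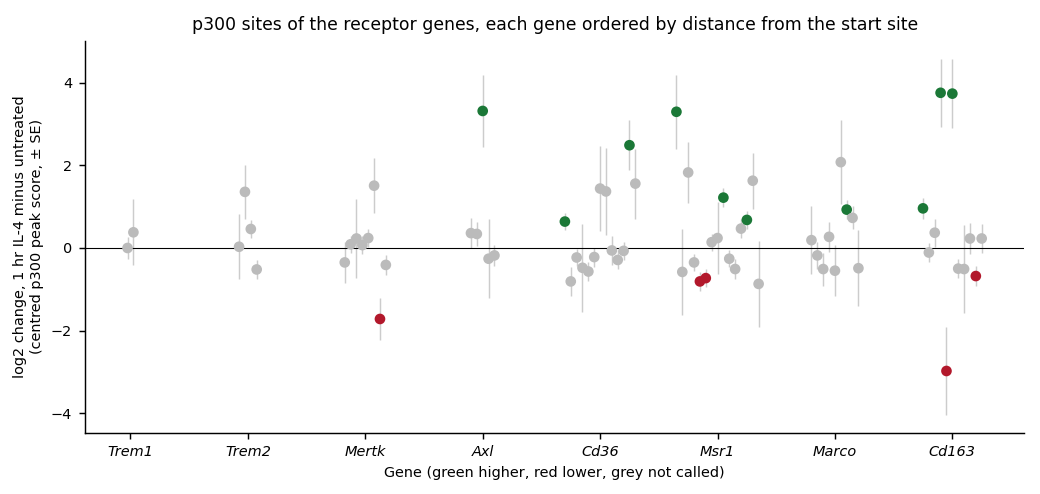
Log2 change of p300 after 1 hr of IL-4 with its standard error at the 67 tested sites, by gene, relative to the shared sites of each library. The 10 sites called higher and the 5 called lower are marked, and Msr1 and Cd163 hold both kinds.

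Motif matches in the 200 bases around these sites were counted on both strands, with overlapping matches of different motifs counted separately. The STAT6 letters were found in 4 of the 10 p300 sites called higher at these genes (Msr1 +17.3 kb, Cd36 +14.3 and −7.7 kb, and Cd163 −8.3 kb), in 0 of the 5 called lower, and in 5 of the 52 not called. Among all p300 sites these shares were 38.9%, 1.42%, and 6.21%. C/EBP letters were in 23.1% of the 78 p300 sites of the 8 genes, against 13.6% of 81224 sites, and in 33.3% of the HDAC1 sites, against 12.4%. PU.1 letters were in 29.9% of the 107 PU.1 sites, against 32.8%. At p65 sites, AP-1 letters were in 33.3%, against 21.8%, and NF-kB letters in 9.26%, against 14.3%. These are counts of letters, and sites of 1 gene are not independent. In the promoters of RefSeq (300 bases, GRCm38), which cover 7 of the 8 genes (Msr1 was not in this table), Trem2 had PU.1, AP-1, and C/EBP letters, Marco PU.1 and NF-kB, Axl PU.1, Cd36 STAT6, and Mertk, Cd163, and Trem1 had none. Of 32851 promoters, 13.6% held the PU.1 letters, 7.81% AP-1, 10.8% C/EBP, 5.82% NF-kB, and 6.95% STAT6.

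PU.1 and the HDACs showed no called change at these genes. By limma, 0 of 65 PU.1 sites were called (0.0735% of all sites were), with 1 at an unadjusted p of at most 0.05 (10.6% of all). For HDAC1 it was 0 of 29 (0% of all) with 5 unadjusted (13.1%), for HDAC2 0 of 32 (0.00404%) with 2 unadjusted (11.4%), and for HDAC3 0 of 27 (1.32%) with 7 unadjusted (18.6%). These counts do not show that binding was equal, and in simulated data with 200 changed sites these fits found 0% of log2 changes of 2. HDAC3, with the highest of these unadjusted counts, had higher scores after IL-4 at several intronic elements: at Mertk +20.5 kb it was 19.89 and 8.47 in untreated cells against 28.05 and 35.13 after IL-4, and at Cd36 −7.7 kb it was 3.75 and 9.88 against 20.32 and 21.23. It had lower scores at Trem1 −1.8 kb, with 11.92 and 17.8 against 7.31 and 4.54, and at Msr1 −2.1 kb, with 15.12 and 5.97 against no peak. These HDAC3 scores are not centred. Untreated replicate 2 of HDAC3, with 8.47 at Mertk +20.5 kb, had 8440 peaks, against 11971 to 13599 in the other HDAC3 libraries. HDAC1 at the Axl element at +11.8 kb was 51.42 and 49.34 against 30.55 and 26.56, and HDAC2 there was 47.96 and 43.01 against 55.5 and 38.28. HDAC1 at Cd36 −4.9 kb, over the region missing from the IL-4 lists of H3K27Ac, was 22.07 and 21.75 against 13.58 and 5.93. These HDAC1 and HDAC2 scores are not centred either. The mean of the median log2 score of shared HDAC1 sites was 3.25 in untreated and 2.93 in IL-4 libraries. Relative to these sites, the HDAC1 change was −0.5 at Axl +11.8 kb and −0.97 at Cd36 −4.9 kb, neither of them called.

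**Figure D3:**
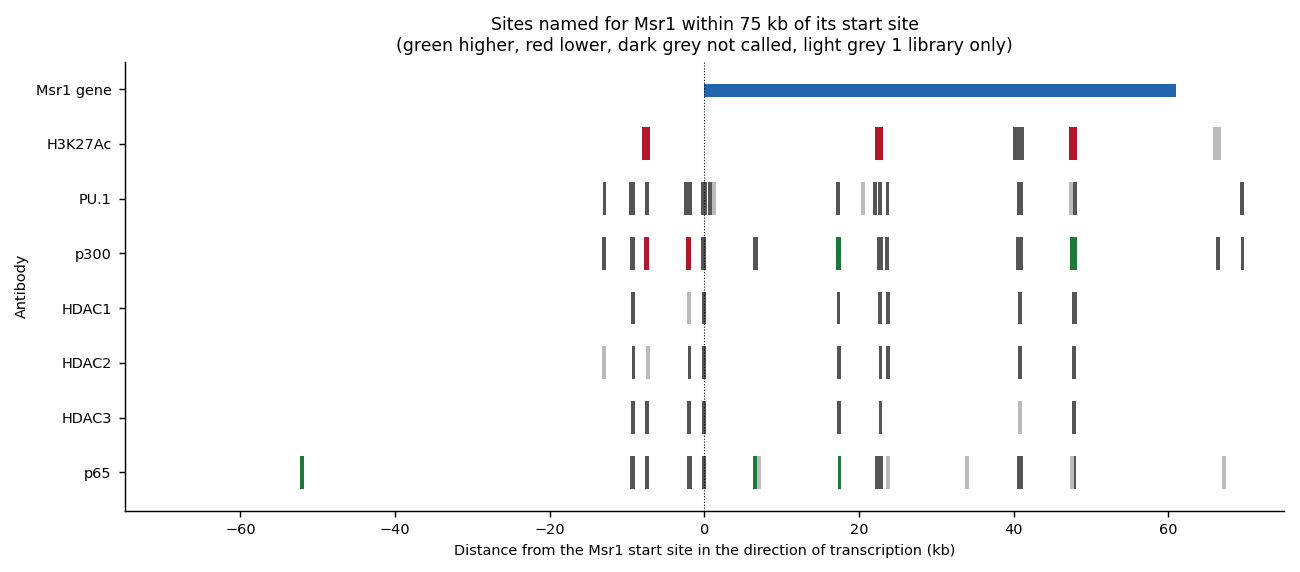
Map of the sites within 75 kb of the Msr1 start site by antibody, as distance from the start in kb, with called changes coloured (p65 for IL-4 PT under LPS, the other antibodies for 1 hr of IL-4). Around −7.5 kb both H3K27Ac and p300 are lower, and at +17.3 kb p300 is higher, as is p65 in IL-4 PT/LPS.

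No change of RNAPII was called at the 8 genes after 1 hr of IL-4. The value of a gene is the sum of the scores of its peaks. For RNAPII-pS5, limma called 0 of 7 tested genes (1.33% of all genes were called), with 1 at an unadjusted p of at most 0.05 (15.9% of all), and for RNAPII-pS2, 0 of 6 (5.44%), with 0 unadjusted (19.3%). The 1 gene was Msr1, with RNAPII-pS5 sums of 79.73 and 54.90 in untreated cells against 51.16 and 35.36 after IL-4 (log2 change −0.59, SE 0.21, limma adjusted p = 0.234). Mertk had 144.58 and 105.66 against 113.21 and 102.44, Cd36 101.35 and 57.37 against 78.08 and 67.40, and Trem2 55.60 and 41.47 against 48.39 and 43.41. At Mertk both IL-4 libraries were lower relative to the shared genes (centred log2 values of 1.04 and 0.99 against 1.13 and 1.21), but this did not pass (−0.15, limma adjusted p = 0.555), and at Cd36 and Trem2 the groups overlapped. RNAPII-pS2 had no peak at Marco or Trem1 in this experiment, and at Trem2 it was 26.06 and 25.16 against 25.40 and 20.65.

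LPS lowered RNAPII at Mertk and, for RNAPII-pS2, at Axl, and LPS alone raised it at Cd36 and at elements named for Marco. For RNAPII-pS5, LPS alone gave 3 genes called higher and 1 lower of 7 (28.4% of all genes were called), and for RNAPII-pS2, 2 higher and 2 lower of 8 (32.6%). In cells pretreated with IL-4, LPS gave 0 higher and 1 lower for RNAPII-pS5 (22.9% of all) and 0 higher and 4 lower for RNAPII-pS2 (26.1% of all). The contrasts share libraries within the fit, so they are given side by side and not as separate evidence. The median log2 value of shared genes was 4.36 in ctrl/ctrl and 4.03 in ctrl/LPS for RNAPII-pS5, and 4.62 and 4.85 for RNAPII-pS2, and changes are relative to these medians.

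Mertk, the kinase that mediates uptake of dying cells, fell with LPS in both forms of the polymerase, with and without IL-4. RNAPII-pS5 sums were 42.17 and 44.60 in ctrl/ctrl, 43.50 and 48.87 in IL-4 PT/ctrl, 11.94 and 10.24 in ctrl/LPS, and 17.27 and 11.72 in IL-4 PT/LPS. All 4 LPS libraries were below the other 4. The log2 change with LPS was −1.65 (SE 0.27, limma adjusted p = 0.00662) without and −1.58 (SE 0.27, limma adjusted p = 0.00846) with pretreatment, and the second call ended without IL-4 PT/ctrl replicate 2 (−1.53, limma adjusted p = 0.0527). RNAPII-pS2 sums were 88.32 and 100.33 in ctrl/ctrl, 60.16 and 61.22 in IL-4 PT/ctrl, 47.69 and 49.19 in ctrl/LPS, and 26.72 and 35.82 in IL-4 PT/LPS. Pretreated libraries were lower than their counterparts at each step, with log2 changes of −0.57 at 24 hr of IL-4 (limma adjusted p = 0.0858) and −0.69 under LPS (limma adjusted p = 0.0627), neither of which passed. LPS changed RNAPII-pS2 by −1.18 (SE 0.20, limma adjusted p = 0.00409) alone and by −1.31 (SE 0.20, limma adjusted p = 0.00409) after pretreatment.

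Axl fell with LPS in RNAPII-pS2, and its change in RNAPII-pS5 did not pass. RNAPII-pS2 sums were 36.15 and 40.99 in ctrl/ctrl, 35.84 and 33.49 in IL-4 PT/ctrl, 13.61 and 13.87 in ctrl/LPS, and 22.61 and 17.70 in IL-4 PT/LPS. The change with LPS was −1.71 (SE 0.25, limma adjusted p = 0.00252) alone and −1.13 (SE 0.25, limma adjusted p = 0.0145) after pretreatment, and the difference between them did not pass (0.58, limma adjusted p = 0.354). The call after pretreatment ended without IL-4 PT/ctrl replicate 1 (−1.01, limma adjusted p = 0.0714) or IL-4 PT/LPS replicate 2 (−0.97, limma adjusted p = 0.0757). Most of this sum came from the element at +11.8 kb, where the score was 36.15 and 40.99, 35.84 and 33.49, 8.25 and 9.87, and 17.56 and 17.7 in the same order. RNAPII-pS5 at Axl was 12.65 and 11.47, 29.83 and 30.37, 11.61 and 6.58, and 16.03 and 14.02. It was highest in the IL-4 PT/ctrl libraries, but this did not pass (1.25, SE 0.36, limma adjusted p = 0.0796).

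Trem2 also had its highest RNAPII-pS5 in IL-4 PT/ctrl, with no contrast called. Its sums were 14.17 and 14.78 in ctrl/ctrl, 29.03 and 27.73 in IL-4 PT/ctrl, no peak and 7.61 in ctrl/LPS, and 6.26 and 5.77 in IL-4 PT/LPS. The peak at the start site spanned 2027 and 2250 bp in the IL-4 PT/ctrl libraries, 1421 and 308 bp in ctrl/ctrl, and 360 to 459 bp in the LPS libraries that had one. LPS changed the sum by −1.80 alone (SE 0.71, limma adjusted p = 0.101) and by −2.13 after pretreatment (SE 0.71, limma adjusted p = 0.0729). For RNAPII-pS2 the sums were 16.53 and 23.66, 26.13 and 29.69, 7.78 and 11.89, and 20.51 and 8.81 in the same order of groups. The changes with LPS, −1.26 and −1.39, did not pass either (limma adjusted p = 0.0781 and 0.0675). Trem1, the receptor that amplifies inflammatory signals, had almost no RNAPII-pS5, with a single peak of 7.07 in ctrl/ctrl replicate 2. Its RNAPII-pS2 sums were 11.45 and 9.03, 11.35 and 4.14, 15.71 and 19.08, and 21.71 and 19.93, with no contrast called. At +2.0 kb, within Trem1, RNAPII-pS2 had a peak in the 4 LPS libraries and in no other, with scores of 8.54 and 19.08 in ctrl/LPS and 16.63 and 12.24 in IL-4 PT/LPS.

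Cd36 rose with LPS alone in both forms, and LPS after pretreatment was not called in either. The centred log2 values of RNAPII-pS5 were 1.38 and 1.90 in IL-4 PT/ctrl and 1.61 and 1.73 in IL-4 PT/LPS. For RNAPII-pS2 they were 3.36 and 3.32 in IL-4 PT/ctrl and 3.42 and 3.36 in IL-4 PT/LPS. RNAPII-pS5 sums were 58.25 and 61.72 in ctrl/ctrl, 55.19 and 81.92 in IL-4 PT/ctrl, 97.38 and 87.06 in ctrl/LPS, and 60.36 and 66.56 in IL-4 PT/LPS. The ctrl/LPS libraries were above all others. LPS changed RNAPII-pS5 by 0.94 (SE 0.20, limma adjusted p = 0.0135), and this call ended without ctrl/ctrl replicate 1 (0.83, limma adjusted p = 0.0765), without ctrl/LPS replicate 1 (0.90, limma adjusted p = 0.0608), with no centring (0.62), and with the highest peak score in place of the sum (0.29, limma adjusted p = 0.343). Under LPS, the change with pretreatment was −0.82 (SE 0.20, limma adjusted p = 0.0397), the 1 gene called of 7 (12.3% of all). That call ended without any of the 4 LPS libraries or either ctrl/ctrl library, with values from −0.76 to −0.96, and the test of the difference in LPS effect did not pass (−0.92, limma adjusted p = 0.102). RNAPII-pS2 sums were 202.68 and 198.10, 228.58 and 246.82, 318.99 and 325.00, and 321.61 and 300.85 in the same order. LPS changed them by 0.46 (SE 0.07, limma adjusted p = 0.00321), and 24 hr of IL-4 by 0.31 (SE 0.07, limma adjusted p = 0.0214), the 1 gene of 8 called there (19.2% of all). The second call ended without any 1 of the ctrl/ctrl or IL-4 PT/ctrl libraries (0.28 to 0.35). With the highest peak score in place of the sum, the LPS value was 0.12 and the 24 hr value −0.11.

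Msr1 rose with LPS in RNAPII-pS5, and in RNAPII-pS2 it fell with LPS after pretreatment. RNAPII-pS5 sums were 25.86 and 23.85 in ctrl/ctrl, 32.32 and 36.69 in IL-4 PT/ctrl, 37.80 and 43.15 in ctrl/LPS, and 45.91 and 46.38 in IL-4 PT/LPS. No 2 groups overlapped in these sums, but relative to the shared genes IL-4 PT/LPS (centred log2 values of 1.21 and 1.21) was not above ctrl/LPS (1.24 and 1.36). LPS changed it by 1.03 (SE 0.17, limma adjusted p = 0.0061), which was 0.40 for the highest peak score (limma adjusted p = 0.242) and 1.00 for the upper 50% of peaks (limma adjusted p = 0.165). RNAPII-pS2 sums were 89.87 and 74.11, 70.51 and 91.06, 104.67 and 70.30, and 61.73 and 55.39 in the same order of groups. Here the ctrl/LPS libraries overlapped those of ctrl/ctrl (−0.15, limma adjusted p = 0.575), and the IL-4 PT/LPS libraries were below all others. LPS after pretreatment changed RNAPII-pS2 by −0.79 (SE 0.19, limma adjusted p = 0.0191), a call that ended without any 1 of the 4 libraries compared (−0.70 to −0.90) and with no centring (−0.45). The difference in LPS effect did not pass (−0.64, limma adjusted p = 0.19).

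The polymerase peaks named for Marco lay almost all outside the gene. In this experiment, 12 of 12 RNAPII-pS5 peaks and 20 of 21 RNAPII-pS2 peaks were intergenic, and the RNAPII-pS5 peak at +55.3 kb was the most regular. RNAPII-pS5 had no peak in either ctrl/ctrl library, and sums of 13.78 and 19.39 in IL-4 PT/ctrl, 19.13 and 10.84 in ctrl/LPS, and 23.06 and 18.42 in IL-4 PT/LPS. It was the 1 gene called higher of 7 after 24 hr of IL-4 (9.97% of all, limma adjusted p = 0.00765), and it was called with LPS (limma adjusted p = 0.00325). With the floor 4 times as high, the 24 hr call ended (limma adjusted p = 0.0627), and with the upper 50% of peaks the LPS call ended (limma adjusted p = 0.873). The LPS effect with and without pretreatment was called different (5.62% of all, limma adjusted p = 0.0417), which ended without any 1 of the 8 libraries (−2.79 to −3.66) and with the replicate block (limma adjusted p = 0.0799). RNAPII-pS2 sums were 9.30 and 3.36 in ctrl/ctrl, 7.81 and 12.29 in IL-4 PT/ctrl, 30.57 and 35.81 in ctrl/LPS, and 31.12 and 30.10 in IL-4 PT/LPS. All LPS libraries were above all others, and LPS alone changed the sum by 2.34 (SE 0.48, limma adjusted p = 0.0094), which ended without ctrl/LPS replicate 2 (2.21, limma adjusted p = 0.0525) and with the highest peak score (1.26, limma adjusted p = 0.0843).

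Cd163 was the 1 gene of 8 called under LPS for pretreatment in RNAPII-pS2 (11.5% of all), and the 1 gene called for a difference in LPS effect (5.33% of all). Its sums were 92.73 and 68.30 in ctrl/ctrl, 83.24 and 95.74 in IL-4 PT/ctrl, 122.38 and 117.63 in ctrl/LPS, and 79.17 and 74.06 in IL-4 PT/LPS. The ctrl/LPS libraries were above all others. Pretreatment under LPS changed it by −0.69 (SE 0.14, limma adjusted p = 0.0222), LPS after pretreatment by −0.56 (SE 0.14, limma adjusted p = 0.0237), and the difference in LPS effect was −0.93 (SE 0.20, limma adjusted p = 0.0409). Each of these ended when 1 library was left out: the first without any of the 4 libraries compared (−0.67 to −0.73), the second likewise (−0.52 to −0.59), and the third without any library but ctrl/ctrl replicate 1 (−0.76 to −0.97) and with the replicate block (limma adjusted p = 0.0647). Of 33 RNAPII-pS2 peaks named for Cd163, 20 were intergenic, and without intergenic peaks LPS after pretreatment gave 0.10. At the element at −31.3 kb the scores were 73.22 and 51.04, 63.56 and 65.68, 76.26 and 80.82, and 55.1 and 51.74 in the order of groups above. In the intron, at +15.1 kb, they were 4.49 and no peak, 9.01 and 6.17, 31.47 and 17.97, and 11.26 and 10.54. RNAPII-pS5 sums were 50.81 and 56.78, 42.12 and 36.56, 26.78 and 53.81, and 20.20 and 24.16, and pretreatment under LPS did not pass (−1.07, limma adjusted p = 0.0748).

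**Figure D4:**
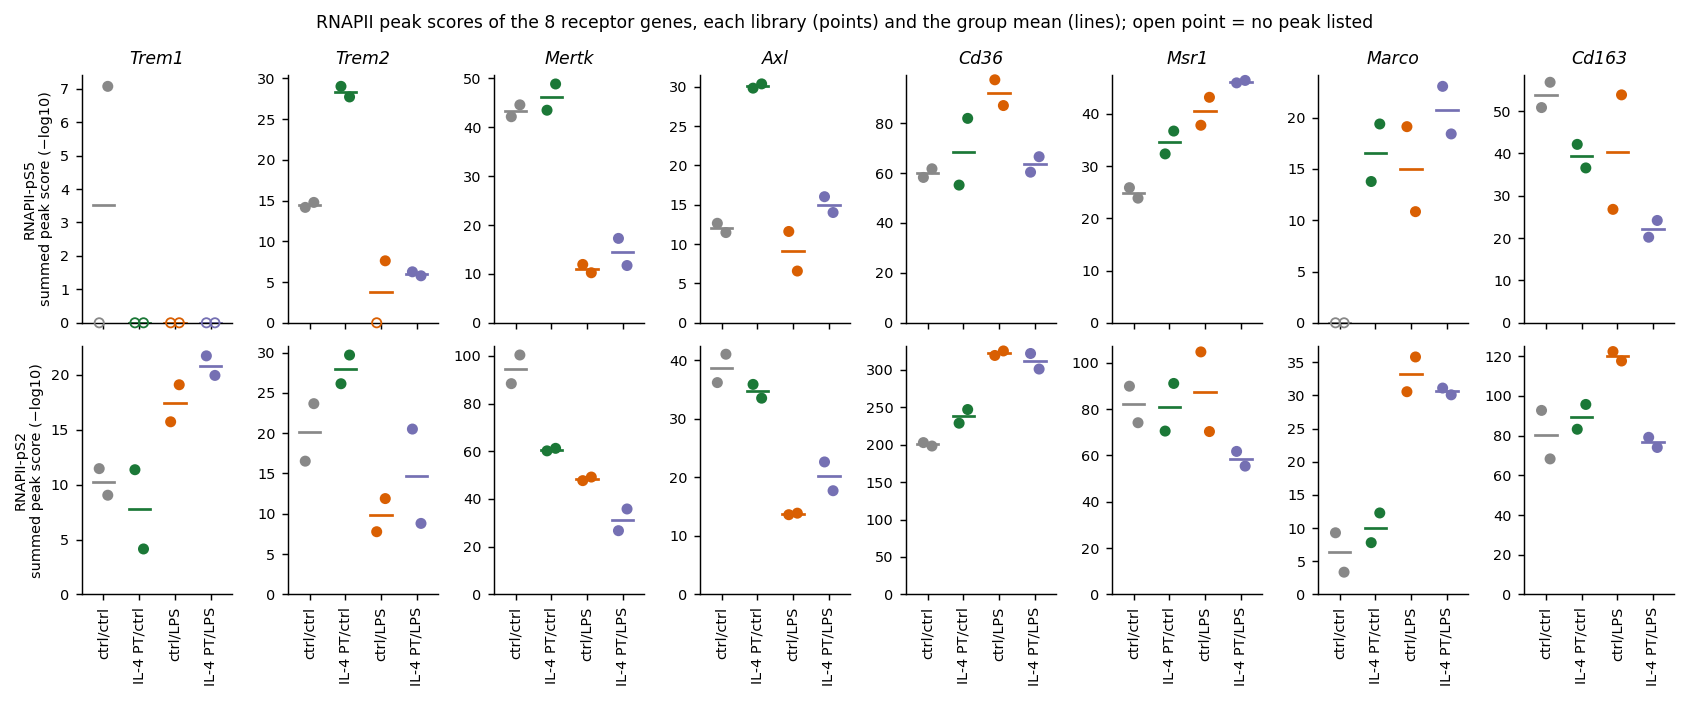
Sums of RNAPII-pS5 and RNAPII-pS2 peak scores per gene and library (linear axis) in the 4 groups of the PT experiment, with lines at the mean of the 2 libraries and open points for libraries with no peak, counted as 0. Mertk drops in all LPS libraries in both forms, and Cd36 RNAPII-pS2, in these sums with no centring, is above 300 in all 4 of them.

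In the other genes of uptake and its signaling, a list of 55 that includes bridging proteins, phagocytic receptors, complement C1q, and engulfment genes, changes went both ways. Scores per library are not given for this list. Its sizes can rest on the value given to missing peaks, so they are no bound. With LPS alone, 5 of 45 tested genes were called higher and 9 lower for RNAPII-pS5 (31.1%, against 28.4% of all genes, with a median log2 change of −0.16 against −0.34). Among the lower genes were Gas6, the ligand of Axl and Mertk (−3.77), the engulfment factor Dock1 (−3.49), the scavenger receptor Stab1 (−2.24), Tyrobp, the adaptor of Trem1 and Trem2 (−1.28), and C1qa (−1.26) and C1qb (−0.74), which bind dying cells. The higher genes were Anxa1, an annexin with pro-resolving actions (2.88), Anxa5 (1.80), Cd5l (1.05), Calr (0.59), and the engulfment factor Elmo1 (0.54). After pretreatment, LPS gave 2 higher and 13 lower (33.3%, against 22.9% of all, median −0.29 against −0.17), with Gas6 at −3.67 and Tyrobp at −1.19. For RNAPII-pS2 it was 11 higher and 5 lower with LPS alone (35.6%, against 32.6%, median 0.22 against −0.22), and 7 higher and 6 lower after pretreatment (28.9%, against 26.1%, median 0.01 against −0.13). Gas6 was lower in both, at −1.26 and −1.42. With 24 hr of IL-4, 2 were higher and 6 lower for RNAPII-pS5 (17.8%, against 9.97% of all), and 8 higher and 7 lower for RNAPII-pS2 (33.3%, against 19.2%), with Anxa1 higher in both (4.19 and 2.31). Under LPS, pretreatment gave 0 higher and 5 lower for RNAPII-pS5 (11.1%, against 12.3% of all) and 3 higher and 2 lower for RNAPII-pS2 (11.1%, against 11.5%). After 1 hr of IL-4, 0 were higher and 1 lower of 45 for RNAPII-pS5 (Stab1, −1.85, against 1.33% of all genes called), and 2 higher and 3 lower of 37 for RNAPII-pS2 (13.5%, against 5.44%). The higher were Abca1 (2.94) and Stab1 (1.41), and the lower Itgb3 (−2.97), Mrc1 (−1.25), and Abcg1 (−1.03). These RNAPII-pS2 signs follow the labels and would turn if the peak names were right. The study reports Abca1 mRNA as repressed by IL-4 at a later time. Whether labels or peak names were right was not tested.

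The genes most like each receptor over the 8 RNAPII-pS5 libraries of the PT experiment were ranked by Pearson's r among 5015 genes with a peak in all 8. For Mertk they were Zfp672 (0.978), Pop1 (0.978), and Pygb (0.976). For Axl, Fam168a (0.954) and Rab11a (0.94) were among them, and for Msr1 they were Btg1 (0.996), Gm12718 (0.989), and Gm6432 (0.987). For Cd36 they were Mospd4 (0.965), 4833427F10Rik (0.956), and Ccdc154 (0.955), and for Cd163 they were Fyb (0.975), Col6a4 (0.953), and Vegfa (0.95). With 8 points that share their libraries, values this high are found by picking among 5015 genes, and none of them is a test.

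p65 binding near the 8 genes was present in few places without LPS and in many with it. Of 54 p65 sites, 11 had a peak in both ctrl/ctrl libraries, 12 in both IL-4 PT/ctrl, 28 in both ctrl/LPS, and 37 in both IL-4 PT/LPS. These shares, 20.4%, 22.2%, 51.9%, and 68.5%, compare with 12.8%, 13.7%, 40.7%, and 58.9% of all 51419 sites, so the rise followed that of all sites. At 5 genes a site was found in both ctrl/ctrl libraries, at 6 in both IL-4 PT/ctrl, and at all 8 in both libraries of either LPS group. Peaks in all 8 libraries were found at 7 sites (12.96%, against 7.72% of all), in the 4 LPS libraries and no other at 10 (18.5%, against 14.96%), and in the 2 IL-4 PT/LPS libraries and no other at 8 (14.8%, against 12.7%).

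At Msr1 and Cd36, p65 sites that already had peaks rose with LPS. At Msr1 −7.5 kb, where IL-4 lowered H3K27Ac, the scores were 3.55 and 4.89 in ctrl/ctrl, 5.21 and 3.56 in IL-4 PT/ctrl, 27.17 and 29.6 in ctrl/LPS, and 25.75 and 22.27 in IL-4 PT/LPS. All 4 LPS libraries were above the other 4 (log2 change with LPS alone 1.72, limma adjusted p = 0.00526). At Cd36 +8.8 kb the scores were 14.62 and 6.3, 8.5 and 11.83, 57.52 and 83.44, and 63.46 and 72.95 in the same order (1.81, limma adjusted p = 0.023). The groups with and without LPS did not overlap, but this call ended without ctrl/ctrl replicate 2 (1.14), ctrl/LPS replicate 2 (1.55), or either IL-4 PT/LPS library (1.81). At Axl +6.9 kb the scores were 2.93 and 6.64 in ctrl/ctrl, no peak in IL-4 PT/ctrl, 20.79 and 38.12 in ctrl/LPS, and 50.94 and 43.84 in IL-4 PT/LPS. Its call (1.63, limma adjusted p = 0.0359) ended without ctrl/ctrl replicate 1 (0.98), ctrl/LPS replicate 2 (1.20), or any library of the pretreated groups (1.59 to 1.64). At Cd163 −31.3 kb, with 40.39 and 32.13, 33.76 and 18.8, 59.71 and 67.67, and 66.46 and 74.81, the LPS libraries were also all above the others, and no change relative to the shared sites was called. The leading element of Axl at +11.8 kb overlapped between libraries with and without LPS, with 21.04 and 16.7, 23.27 and 29.84, 20.81 and 21.27, and 29.32 and 33.1.

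Other sites gained a peak with LPS. Trem1 +2.0 kb, the intron element where RNAPII-pS2 also had a peak in the LPS libraries alone, had no peak in the 4 libraries without LPS, 25.6 and 26.52 in ctrl/LPS, and 25.09 and 34.43 in IL-4 PT/LPS. The Msr1 start site, at −0.1 kb, had no peak without LPS, 16.26 and 28.41 in ctrl/LPS, and 6.79 and 15.34 in IL-4 PT/LPS. At Msr1 +40.8 kb and Cd36 −7.8 kb, a peak was also found in pretreated cells without LPS, with 6.03 and 8.64, and 6.97 and 5.93, and with LPS the scores were 41.01 and 37.05 in ctrl/LPS at the first and 30.59 and 33.94 at the second. Mertk +10.7 kb went the other way in its listing, with 6.88 and 13.99 in ctrl/ctrl, 4.37 and 3.97 in IL-4 PT/ctrl, 13.74 and no peak in ctrl/LPS, and no peak in IL-4 PT/LPS.

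By limma, LPS alone gave 14 p65 sites called higher and 10 lower of 41 tested (46.9% of all sites were called). Of the 10 lower, 9 had no peak in any of the 4 libraries compared, and their sign came from the centring, since the median log2 score of shared sites was 3.64 in ctrl/ctrl, 3.44 in IL-4 PT/ctrl, 4.68 in ctrl/LPS, and 4.95 in IL-4 PT/LPS. The tenth was Axl +11.8 kb, whose change was 0.17 with no centring. With the value for missing peaks set after centring, the counts were 15 higher and 1 lower (33.3% of all), and with no centring 21 and 0. After pretreatment, LPS gave 18 higher, 5 of which had peaks in IL-4 PT/LPS alone, and 2 lower (41.3% of all), 24 and 2 with the value set after centring (53.3% of all), and 33 and 0 with no centring. The number of LPS calls without ctrl/ctrl replicate 1 was 12, and without ctrl/ctrl replicate 2 it was 13.

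Pretreatment under LPS gave 9 sites called higher and 0 lower (30.9% of all sites were called), and 12 had an unadjusted p of at most 0.05. All 9 had a peak in both IL-4 PT/LPS libraries and in neither ctrl/LPS library, and 8 of them had no peak in any other library and met the filter through the IL-4 PT/LPS libraries alone, so these counts are a description. The highest scores were at −132.8 kb from Msr1, with 21.73 and 22.03 in IL-4 PT/LPS and no peak in the other 6 libraries, followed by Mertk +43.7 kb, with 11.89 and 18.57 and none elsewhere. The others were Msr1 −52.1 kb (9.6 and 9.29), Msr1 +6.5 kb (8.43 and 5.04), Msr1 +17.4 kb (7.28 and 5.63), Cd36 −1.6 kb (7.71 and 10.22), Marco −19.3 kb (4.33 and 8.88), Cd163 +7.1 kb (6.28 and 4.39), and Cd163 −33.4 kb (8.33 and 7.94). The scores at these 7 sites were between 4.33 and 10.22. Msr1 +17.4 kb and Cd163 −33.4 kb lie at the same elements as p300 sites called higher after 1 hr of IL-4, and Cd163 −33.4 kb also had p65 peaks of 6.03 and 4.09 in IL-4 PT/ctrl. Without either IL-4 PT/LPS library the number called dropped to 1. Setting the value for missing peaks after centring gave 9 again (28.4% of all). The median log2 change with pretreatment under LPS was −0.04 over the tested p65 sites of these genes, against 0.39 over all sites. The IL-4 PT/LPS libraries also had more p65 peaks in all, 36738 and 38955, against 26305 and 26820 in ctrl/LPS. Whether this gap accounts for the peaks listed in IL-4 PT/LPS and not in ctrl/LPS was not tested.

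Higher scores in pretreated LPS libraries were also seen at sites that were not called. At Marco +55.2 kb, p65 had no peak in ctrl/ctrl, 5.02 and no peak in IL-4 PT/ctrl, 7.94 and 7.45 in ctrl/LPS, and 36.89 and 25.56 in IL-4 PT/LPS. This was the element with higher p300 after 1 hr of IL-4. At the Trem2 start site, the scores were no peak, 5.34 and 3.65, 6.28 and 8.22, and 20.96 and 7.22 in the same order, and here the LPS groups overlapped. For 24 hr of IL-4 alone, 3 sites were called higher and 0 lower (4.37% of all, 5.88% with the value for missing peaks set after centring), at Cd36 −7.8 kb, Cd163 −33.4 kb, and Msr1 +40.8 kb, and none of them with only the 2 groups compared. The difference in LPS effect was called at 10 sites, 8 higher and 2 lower with pretreatment, the 8 being the sites with peaks in IL-4 PT/LPS alone (23.3% of all, 26.2% with the value set after centring), and at 0 or 1 without either IL-4 PT/LPS library.

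**Figure D5:**
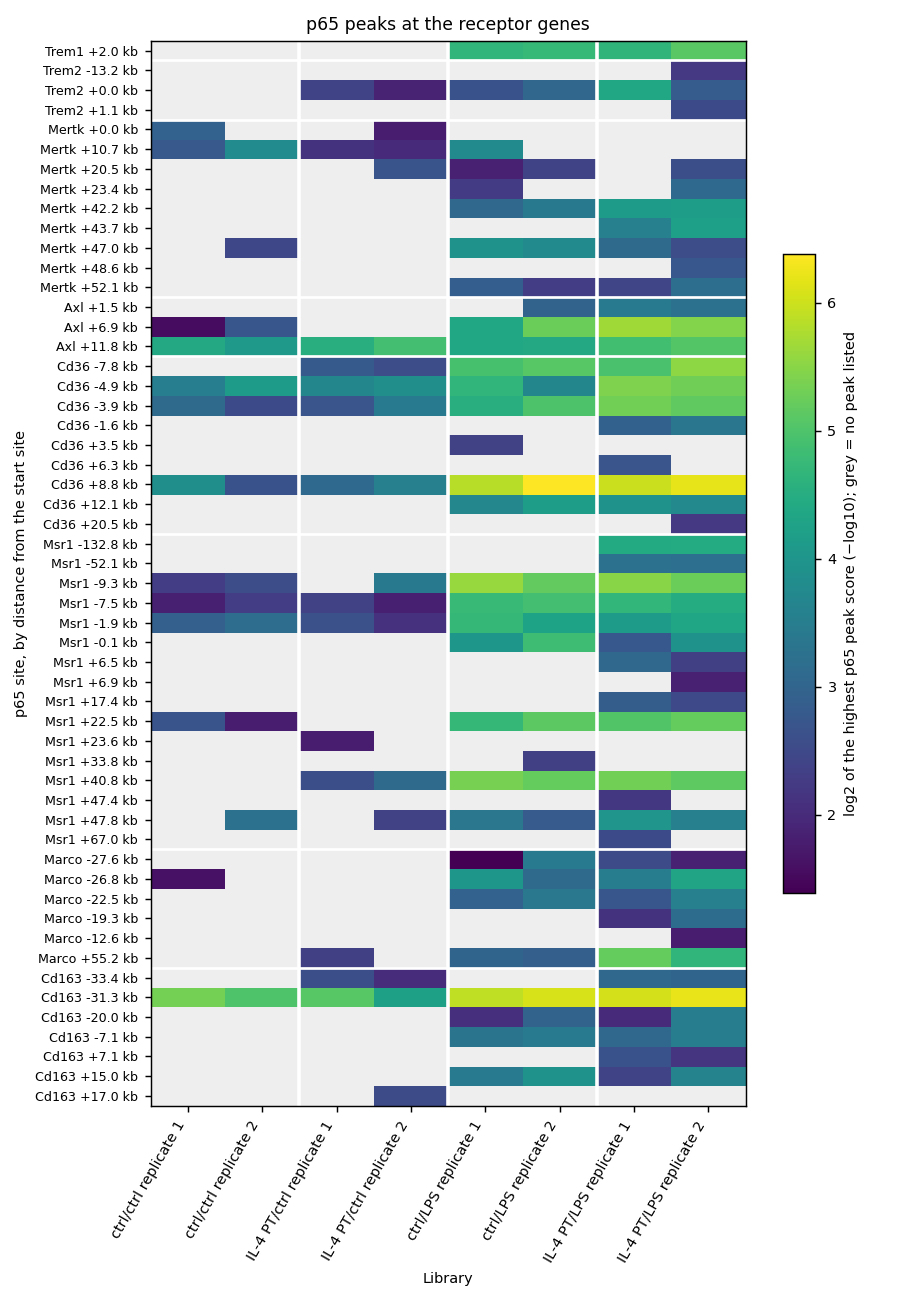
Heat map of p65 peak scores at the 54 sites of the 8 genes (rows) in the 8 libraries of the PT experiment (columns), with empty cells where no peak was listed. Most rows fill in the 4 LPS libraries, and 8 rows are filled in the 2 IL-4 PT/LPS libraries and in no other.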

How the data were processed

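ChIP-seq was performed on double cross-linked (DSG and formaldehyde) wild-type BMDMs, and 2 library kits were used. The authors aligned the reads to mm10 and called peaks with MACS2. Deposited peak scores are on the −log10 scale of a p-value or q-value, and the files do not say which. H3K27Ac regions came from HOMER, with a tag-normalized signal deposited per region. Blacklisted regions were removed, and HOMER assigned each peak to the nearest start site. The submitters' processing notes name BWA 0.7.10, SAMtools 0.1.19, HOMER 4.2, and MACS2 2.0.10. Depth is unknown, as no reads were analysed here.

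For RNAPII, scores were summed per gene. For the other antibodies, peaks overlapping by at least 1 bp were merged into sites with the highest score per library. Values were put on a log2 scale, missing peaks received the lowest score of the fit's files, and each library was centred on the median of features present in every library. Features with a peak in at least 2 libraries were tested with limma 3.58.1 in R 4.3.3 (empirical Bayes with a mean trend), with Benjamini-Hochberg adjustment over all features, separately for the 1 hr experiment and for the 4 groups of the PT experiment. Of the members' sites, 20 of 22 passed this filter for H3K27Ac, 29 of 36 for HDAC1, 32 of 40 for HDAC2, 27 of 31 for HDAC3, 65 of 107 for PU.1, 67 of 78 for p300, and 41 of 54 for p65. Alternatives changed the value of missing peaks, the centring, the filter, the trend, the replicate block, the summary per gene, and the libraries used, and the value of missing peaks set after centring was chosen after seeing the data. Sequences were read from GRCm38, whose chromosomes contain every site, and gene positions from GENCODE vM21. Other steps ran in pandas 2.3.3 with NumPy 2.4.6 under Python 3.11.15, and figures were drawn with matplotlib 3.10.9. Each fit was tested on simulated data in which 200 features were changed by a known log2 amount. At a change of 2, 0% were found for PU.1, HDAC1, HDAC2, HDAC3, and p300, and 81% for H3K27Ac. At a change of 4, 9% were found for PU.1 and 44% for p300. With p65 and LPS, 21% were found at a change of 2, and 12.5% of calls were false. Where few features change, the adjustment is stricter than where many do. The real p300 fit called 21% of its sites, so the simulated shares do not give the power of the real fits. Samples were grouped by their labels. The labels alone do not say that replicates are separate cultures, while the study's methods describe independent biological replicates. The members and the gene lists were chosen with earlier results of these data known. The names in the text are the 8 members, sites by rank of change or score, and for each member the 3 genes with the most similar pattern. In the ranking of genes by likeness to each receptor, 1 gene is not reported here.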

Additional observations from a re-analysis of the deposited data

Results flagged for a closer look

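Groups had 2 libraries each, and groups of this size were not examined for outliers. The results below were picked out because limma called the effect of LPS different between cells with and without IL-4 PT. Values are on the log2 scale, as the LPS effect with IL-4 PT minus that without.

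For RNAPII, the difference was −3.2 at Marco for RNAPII-pS5 and −0.93 at Cd163 for RNAPII-pS2. At Marco both ctrl/ctrl libraries had no peak, so the size rests on the value given to missing peaks, and all peaks were intergenic. Both calls ended with the replicate block.

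For p65, the difference was positive at 8 sites, each with a peak in the IL-4 PT/LPS libraries and in no other. It was 3.6 at Msr1 chr8:39775270-39775620, 3.04 at Mertk chr2:128742489-128742828, 2.39 at Msr1 chr8:39694566-39694924, 2.3 at Cd36 chr5:17837284-17837692, 1.85 at Msr1 chr8:39635971-39636347, 1.83 at Msr1 chr8:39625142-39625452, 1.78 at Marco chr1:120524188-120524487, and 1.54 at Cd163 chr6:124311592-124311857. It was negative at Msr1 chr8:39601532-39602323 (−2.98) and at Cd36 chr5:17857306-17857805 (−2.53), which had weak peaks after IL-4 alone, none in ctrl/ctrl, and strong peaks in both LPS groups. All 10 sizes depend on the value given to missing peaks. The 8 positive sites had no peak in any other library and met the filter of a peak in at least 2 libraries through IL-4 PT/LPS alone, which fixed their sign, so their values are a description and not a test of a difference. Without IL-4 PT/LPS replicate 1 none of the sites was called, and without replicate 2, 1 was. Their cause was not tested.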

How the results depend on the processing

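The numbers of members called moved by over 1.5 times under several alternatives, and the cause was not tested where none is named. With missing peaks set to 4 times the lowest score, the count was 1 for HDAC3, 0 for RNAPII-pS5 at 24 hr of IL-4, 2 for RNAPII-pS5 with LPS after IL-4 PT, 0 for the LPS by IL-4 PT interaction of RNAPII-pS5 and of RNAPII-pS2, and for p65 0 at 24 hr of IL-4 and 2 for the interaction. With the value set after centring it was 8 for p300 and 6 for p65 at 24 hr of IL-4. With no centring it was 0 for p300, for RNAPII-pS5 IL-4 PT under LPS, and for RNAPII-pS2 at 24 hr of IL-4, IL-4 PT under LPS, and the interaction, and 33 for p65 with LPS after IL-4 PT. With limma without a mean trend it was 0 for p300, RNAPII-pS5 IL-4 PT under LPS, and RNAPII-pS2 at 24 hr of IL-4, IL-4 PT under LPS, and the interaction, and 2 for RNAPII-pS2 with LPS after IL-4 PT. With a peak in every sample required, which tests fewer features, it was 9 for p300, 0, 2, and 0 for RNAPII-pS5 (24 hr of IL-4, IL-4 PT under LPS, interaction), 3 and 2 for RNAPII-pS2 (IL-4 PT under LPS, interaction), and 3, 0, 0, 2, and 0 for p65 (LPS, 24 hr of IL-4, IL-4 PT under LPS, LPS after IL-4 PT, interaction). With a peak in at least 1 sample it was 1 for HDAC3, 3 for p300, and 0 for the RNAPII-pS5 interaction. With the highest peak score it was 2 for RNAPII-pS5 with LPS, at 24 hr of IL-4, and with LPS after IL-4 PT, and 2, 2, and 0 for RNAPII-pS2 (LPS, IL-4 PT under LPS, interaction). With the upper 50% of peaks it was 2, 3, and 2 for RNAPII-pS5 (LPS, IL-4 PT under LPS, LPS after IL-4 PT), 2, 0, and 0 for RNAPII-pS2 (LPS, 24 hr of IL-4, interaction), and 14, 1, 5, 12, and 6 for p65 in the order above. Without intergenic peaks it was 0 for RNAPII-pS5 at 24 hr of IL-4 and for its interaction, since all Marco peaks are intergenic, and 0 for RNAPII-pS2 IL-4 PT under LPS. With only the 2 groups compared it was 2 for RNAPII-pS5 with LPS after IL-4 PT, 0 for RNAPII-pS2 at 24 hr of IL-4, and 15 and 0 for p65 with LPS and at 24 hr of IL-4. At an unadjusted p it was 5, 2, 7, 1, and 27 for HDAC1, HDAC2, HDAC3, PU.1, and p300, 1, 3, 2, 4, and 2 for RNAPII-pS5 (1 hr IL-4, 24 hr IL-4, IL-4 PT under LPS, LPS after IL-4 PT, interaction), 2, 3, 7, and 3 for RNAPII-pS2 (24 hr IL-4 onward), and 7 for p65 at 24 hr of IL-4.

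Leaving out 1 library at a time gave 7 to 8 for H3K27Ac, 0 to 3 for HDAC3, 0 to 1 for PU.1, 3 to 29 for p300, and 0 to 0 for HDAC1, HDAC2, and both RNAPII forms at 1 hr of IL-4. For RNAPII-pS5 it gave 3 to 5, 1 to 2, 0 to 1, 0 to 2, and 0 to 0, for RNAPII-pS2 3 to 5, 0 to 1, 0 to 1, 1 to 5, and 0 to 1, and for p65 12 to 22, 2 to 5, 1 to 12, 7 to 20, and 0 to 9, each in the order LPS, 24 hr of IL-4, IL-4 PT under LPS, LPS after IL-4 PT, and interaction.

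Some single values changed sign. Cd36 RNAPII-pS2 at 24 hr of IL-4 was −0.11 with the highest peak score, and Cd163 RNAPII-pS2 with LPS after IL-4 PT was 0.1 without intergenic peaks. With no centring, p65 at Axl +11.8 kb was 0.17 with LPS and 0.24 with LPS after IL-4 PT, and at Cd163 −33.4 kb 0.71 with LPS after IL-4 PT. With missing peaks at 4 times the lowest score, which lies above weak peaks, p65 with LPS was −0.26 at Marco −22.5 kb, −0.19 and −0.84 at Mertk +42.2 and +52.1 kb, and −0.04 at Cd163 −7.1 kb. IL-4 PT under LPS was −0.03 at Marco −19.3 kb and −0.27 at Cd163 +7.1 kb. LPS after IL-4 PT was −0.75 and −0.01 at Marco −22.5 and −26.8 kb, −0.75 and −0.05 at Cd36 −1.6 and +12.1 kb, −0.61 at Cd163 −7.1 kb, and −1.22, −0.55, and −0.66 at Msr1 +17.4, −0.1, and −52.1 kb. The interaction was −0.22 at Marco −19.3 kb, −0.46 at Cd163 +7.1 kb, and −0.17 and −0.15 at Msr1 +17.4 and +6.5 kb. Of 1774 values of the 109 called members under alternatives, 1385 kept direction and call, 366 lost the call, and 23 changed sign.

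Same-numbered libraries did not deviate together in these scores, with correlations of −0.048 to 0.06 over 26 pairs. This cannot show whether same-numbered libraries came from the same mice or cultures, since a shared origin need not leave a shared deviation. With the replicate block the count was within 1.5 times the reported one in 21 of 23 comparisons, and 0 for the interaction of RNAPII-pS5 and of RNAPII-pS2, and 99 of 109 calls were kept. Depth is unknown and scores rise with it, so weak peaks, and differences between libraries with unequal numbers of peaks, are the least certain values here.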
